A study of Mus musculus with 10 samples.

Results

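The genes described here mark the cortical hem, the bone morphogenetic protein (BMP) signal of the dorsal midline and the choroid plexus: Bmp4, Bmp6, Bmp7, Msx1, Msx2, Lmx1a, Rspo2, Rspo3, Ttr and Folr1. A gene was taken from the arrays where a probe set was annotated with its symbol alone, and the probe set with the highest mean was used. Of the 10 genes 9 could be measured in this way, among 19938 genes in all, and each of the 9 had 1 probe set. Lmx1a, a LIM homeodomain gene of the roof plate and hem, was not analysed here because no probe set was annotated with it alone.

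The cortical hem is a strip of neuroepithelium at the medial edge of the cortical primordium. It secretes BMP and Wnt proteins and borders the choroid plexus, the folded epithelium that makes cerebrospinal fluid. BMP ligands bind paired serine/threonine kinase receptors, which phosphorylate SMAD proteins that then switch on targets such as the Msx and Id genes. R-spondins are secreted proteins that strengthen Wnt signalling by sparing Wnt receptors from degradation.

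The embryos were on a mixed CD1/NMRI strain background and were taken at E12.5, 12 days after the vaginal plug, from 2 dams. In 5 embryos (dtg in the titles) the forebrain expressed constitutively active FoxO3, a transcription factor that is excluded from the nucleus when insulin signals, under the CaMKIIa promoter, which the submitters describe as specific to the forebrain, and 5 embryos (stg) were controls. The labels spell out neither abbreviation, are silent on any transgene in control embryos, and do not assign embryos to dams, so litter and group cannot be told apart. RNA came from one side of each divided forebrain, which had been cut from most of the thalamus at a line through the lateral habenula and the ventromedial hypothalamus. Nothing in the labels concerns pooling, and each embryo had its own array.

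The values are log2 intensities as deposited, so a difference of 1 is a doubling, and a level is comparable between embryos but not between genes. Array medians ran from 5.36 to 5.39 and the correlation between arrays from 0.98 to 0.996, with control embryo 5 the least like the rest. Of 9 measured forebrain identity genes, Pax6 had mean levels of 8.83 (transgenic) and 8.61 (control) and Lhx2 of 9.20 and 9.48. The mean of the 9 ran from 7.14 to 7.50 in transgenic and from 6.74 to 7.89 in control embryos. Control 5 was the lowest of 10 embryos for 4 of the 9 and the highest for 3 (17.1% and 18.4% of all genes). It read 4.82 for Dlx1 and 5.11 each for Dlx2 and Dlx5, against at least 6.86, 6.37 and 6.19 in the other controls. Foxo3 itself lay between 6.76 and 7.13 in transgenic and between 6.50 and 6.87 in control embryos, a difference of 0.34 ± 0.085 (SE, n = 5 per group; limma adjusted p = 0.218). Its probes need not cover the transgene. In tissue RNA, fewer cells of a type and less RNA per cell cannot be told apart.

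None of the 9 measured genes passed an adjusted p of 0.05 between transgenic and control forebrains in limma, where 0.105% of all genes passed. By the unadjusted p, 1 gene (Rspo3) lay below 0.05, against 7.58% of all genes. Of the 9 differences 3 were positive and 6 negative (48.1% and 51.9% over all genes), with a median of -0.037 on the log2 scale, and the median over all genes was -0.0038. The intervals of the differences were wide, and those of 8 of the 9 genes, all but Rspo3, included 0. In none of the 9 genes were the groups free of overlap, a pattern seen in 1.6% of all genes.

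Bmp4, a BMP ligand of the hem and dorsal midline, read 5.62, 5.30, 6.07, 5.71 and 6.84 in control embryos 1 to 5. In transgenic embryos 1 to 5 it read 5.67, 6.19, 5.60, 6.25 and 5.70. Control 5 was the highest of the 10 embryos and control 2 the lowest, and every transgenic value lay between them. The difference was -0.026 with a 95% interval from -0.57 to 0.52 (limma adjusted p = 0.989), and it read 0.21 ± 0.17 (SE) without control 5.

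Bmp7, a ligand of the same superfamily, had control values of 6.01, 5.78, 6.43, 5.98 and 7.005. Its transgenic values were 6.23, 6.33, 5.97, 6.06 and 5.93. The same control embryos formed both ends of the range, and the transgenic embryos spanned 1.31-fold where all 10 embryos spanned 2.34-fold. The difference of -0.14 (interval -0.56 to 0.28, limma adjusted p = 0.914) turned to 0.053 without control 5.

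Bmp6, the third ligand, varied least of the 9 genes. It ran from 5.51 to 5.91 in controls and from 5.49 to 5.81 in transgenic embryos, and transgenic embryo 5 lay below all controls. The difference was -0.11 ± 0.086 (SE; interval -0.30 to 0.075, limma adjusted p = 0.833).

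Msx1 and Msx2 encode homeodomain repressors that are standard readouts of BMP signalling. Msx1 read 5.80, 5.89, 6.05, 5.60 and 6.90 in controls 1 to 5 and 5.98, 6.22, 5.78, 5.81 and 5.48 in transgenic embryos 1 to 5. Control 5 stood 0.68 above the next embryo, and the remaining values were interleaved. The Msx1 difference was -0.19 (interval -0.66 to 0.28, limma adjusted p = 0.89) with all embryos and 0.022 without control 5.

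Msx2 read 5.01, 5.62, 5.49, 5.21 and 6.21 in controls and 5.53, 6.01, 5.27, 5.32 and 5.22 in transgenic embryos. Control 5 and transgenic embryo 2 were the highest of their groups for both Msx genes. The Msx2 difference was -0.037 (interval -0.50 to 0.42, limma adjusted p = 0.983), and it was 0.14 ± 0.16 (SE) without control 5.

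**Figure D1:**
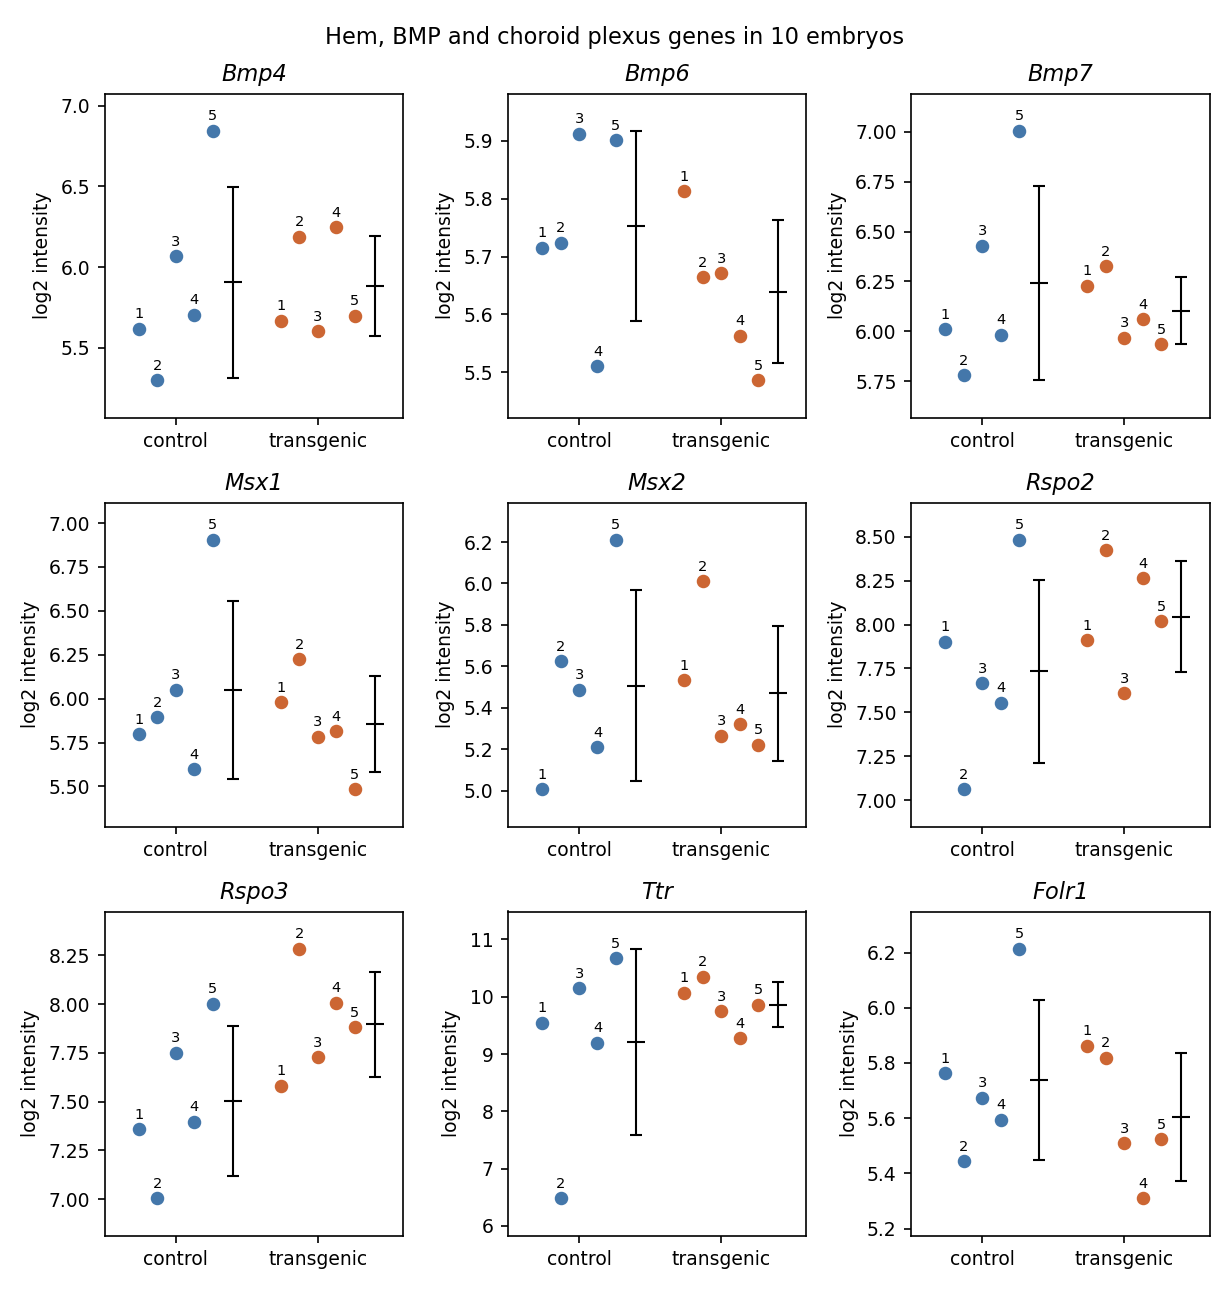
Log2 intensity (vertical axes, a separate scale for each gene) of the 9 measured genes in 5 control (blue) and 5 transgenic (orange) forebrains, with embryo numbers above the points and the mean ± SD in black beside each group. The groups overlap in every gene; control 5 is the highest of the 10 embryos in 7 genes, and control 2 is the lowest in 5, with Ttr at 6.48.

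Promoters of a BMP ligand and of the Msx targets are shown because Bmp4, Msx1 and Msx2 all peaked in the same control embryo. RefSeq (GRCm38.p6) promoter sequences matched 5 of the 10 genes. The 250 bases before the start of transcription are given for 3 of them, each on the minus strand, 5′ to 3′. They lie at chr14:46390670-46390919 (Bmp4), chr5:37824586-37824835 (Msx1) and chr13:53472781-53473030 (Msx2). Capitals mark a CCAAT box (CCAAT, or ATTGG on the other strand) or the homeodomain core TAATTA.
Bmp4: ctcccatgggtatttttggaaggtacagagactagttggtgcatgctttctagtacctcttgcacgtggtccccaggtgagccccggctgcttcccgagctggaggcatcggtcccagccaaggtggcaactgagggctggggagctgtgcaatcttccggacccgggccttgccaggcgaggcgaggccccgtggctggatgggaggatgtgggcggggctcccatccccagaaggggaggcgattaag
Msx1: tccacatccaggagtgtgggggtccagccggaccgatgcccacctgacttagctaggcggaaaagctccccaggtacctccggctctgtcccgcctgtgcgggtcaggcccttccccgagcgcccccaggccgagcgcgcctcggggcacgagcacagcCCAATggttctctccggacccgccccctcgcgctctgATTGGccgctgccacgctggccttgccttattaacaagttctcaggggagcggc
Msx2: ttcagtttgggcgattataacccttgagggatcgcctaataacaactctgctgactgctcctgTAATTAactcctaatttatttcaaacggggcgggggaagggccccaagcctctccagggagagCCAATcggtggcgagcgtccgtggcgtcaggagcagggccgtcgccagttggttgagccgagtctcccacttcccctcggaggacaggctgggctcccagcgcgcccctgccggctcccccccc
Msx1 held CCAAT boxes 91 and 54 bases before the start, the second on the opposite strand. Msx2 held 1 CCAAT box 124 bases before the start and the homeodomain core 187 bases before it. Bmp4 held neither. The CCAAT box occurred in 33.9% and the TAATTA core in 4.84% of 32851 RefSeq promoters over the same 250 bases. No match in these 3 windows, on either strand, was found for the FOXO site GTAAACA (3.17% of promoters), the GC-rich SMAD site GGCGCC (9.59%), the TCF/LEF site CTTTGAA (4.46%) or the homeodomain core TAATTG (7.17%). These letter counts describe the windows alone.

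Rspo2 and Rspo3, the R-spondins of the hem, had the positive differences that were largest relative to their errors. Rspo3 read 7.36, 7.004, 7.75, 7.40 and 8.002 in controls 1 to 5. In transgenic embryos it read 7.58, 8.28, 7.73, 8.01 and 7.88. All 5 transgenic values exceeded the control mean of 7.50 and 2 of them, embryos 2 and 4, exceeded every control. The difference was 0.39 ± 0.18 (SE, n = 5 per group), a ratio of 1.31, with an unadjusted limma p of 0.0468, an adjusted p of 0.649 and an exact two-sided permutation p of 0.103.

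The Rspo3 difference stayed positive when control 5 or control 2 was left out, at 0.52 ± 0.16 without control 5 and 0.27 ± 0.16 without control 2. With both left out it was 0.39 ± 0.15. None of these fits passed over all genes (limma adjusted p = 0.371, 0.765 and 0.838).

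Rspo2 read 7.90, 7.06, 7.67, 7.55 and 8.48 in controls and 7.91, 8.42, 7.61, 8.26 and 8.02 in transgenic embryos. Control 2 lay 0.49 below the next lowest embryo and control 5 was the highest, with 4 of 5 transgenic embryos above the control mean. The difference of 0.31 (interval -0.18 to 0.81, limma adjusted p = 0.823) was 0.14 without control 2 and 0.50 without control 5. Without a covariate the exact permutation p was 0.286 and the limma unadjusted p 0.194. In a fit that also held a covariate of marker genes of the thalamus, midbrain and hypothalamus, the difference was 0.67 ± 0.27 (SE; limma unadjusted p = 0.0276, adjusted p = 0.9999). The mean of the thalamus genes itself differed between the groups by 0.92, so this fit cannot separate group from covariate cleanly.

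Ttr, which encodes the thyroid hormone carrier transthyretin and is the classic early marker of choroid plexus epithelium, was the most variable of these genes. It read 9.55, 6.48, 10.15, 9.20 and 10.67 in controls 1 to 5, and 10.07, 10.35, 9.75, 9.28 and 9.86 in transgenic embryos 1 to 5. Control 2 was 6.57-fold below the next lowest embryo, while the 5 transgenic embryos stayed within a 2.10-fold range. The SD was 1.63 in controls and 0.40 in transgenic embryos, and it was 0.48 in the 3 controls other than 2 and 5.

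The Ttr difference between the groups was 0.65 ± 0.62 (SE; interval -0.69 to 1.995, limma adjusted p = 0.867; exact permutation p = 0.556). It depended on controls 2 and 5, and it read -0.028 ± 0.28 without control 2 and 1.02 ± 0.57 without control 5. With both left out it was 0.23 ± 0.24. Every transgenic value exceeded the control mean of 9.21, which control 2 alone had pulled down from 9.89.

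Folr1, the folate receptor that carries folate across the choroid plexus, ran from 5.44 to 6.21 in controls and from 5.31 to 5.86 in transgenic embryos. Control 5 was again the highest, and transgenic embryo 4 lay below all controls. The difference was -0.13 (interval -0.44 to 0.18, limma adjusted p = 0.885) and -0.014 without control 5.

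**Figure D2:**
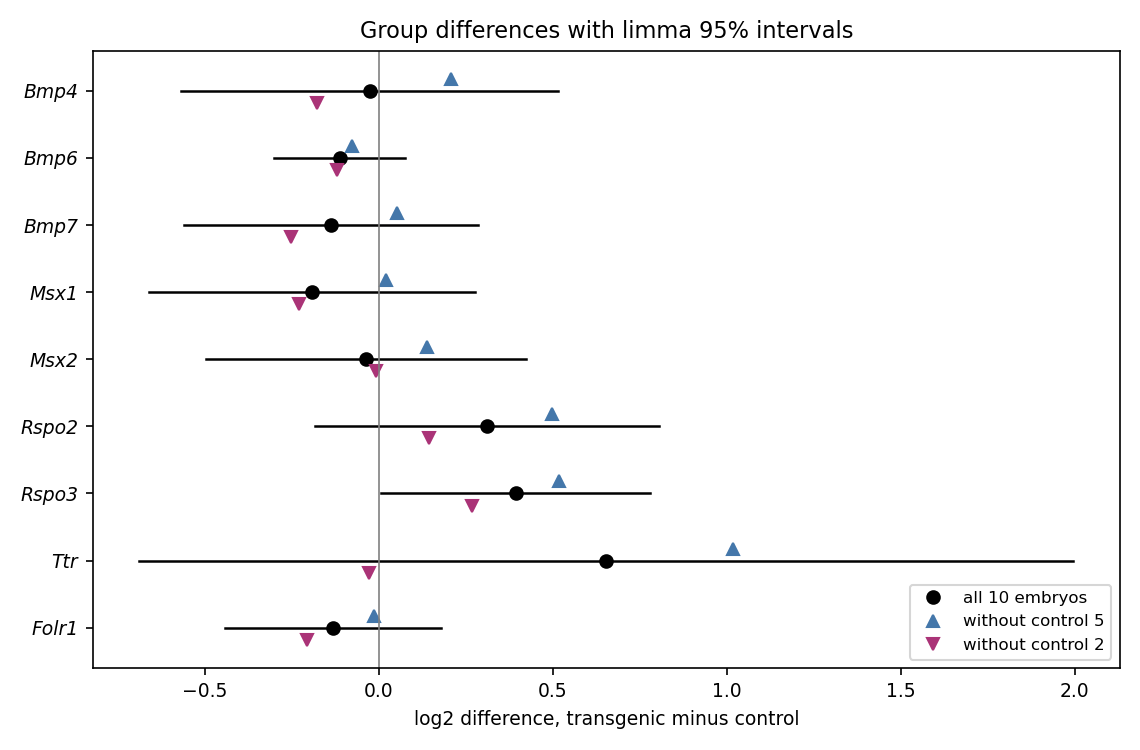
Difference between transgenic and control forebrains on the log2 scale (horizontal axis) for each gene, with the limma estimate and 95% interval over all 10 embryos in black, and the estimate without control 5 (blue, upward triangle) or without control 2 (purple, downward triangle). Ttr moves from 1.02 to -0.028 between the 2 settings, whereas Rspo3 and Rspo2 stay positive.

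The 9 genes varied widely among embryos. The within-group SD of 8 of the 9 genes lay between 0.26 and 1.18, against a median of 0.12 over all genes, and that of Bmp6 was 0.15. The SD was larger in controls than in transgenic embryos for 9 of 9 genes, as it was for 53.3% of all genes. Without control 5 this held for 6 of 9 (43.8% of all genes), and without controls 2 and 5 for 3 of 9 (41.4%). These are counts over genes that share the same embryos, and no test was made of them.

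Control 5 was the highest of the 10 embryos for 7 of the 9 genes, against 18.4% of all genes. Control 2 was the lowest for 5 of 9 (Bmp4, Bmp7, Rspo2, Rspo3 and Ttr), against 7.72% of all genes. Compared with the other 4 controls, control 5 read 1.17 higher for Bmp4, 1.07 for Msx1, 0.95 for Bmp7, 0.94 for Rspo2 and 1.83 for Ttr. Control 2 differed from the other 4 controls by -3.41 for Ttr, -0.84 for Rspo2 and -0.76 for Bmp4. Bmp5 and Wnt8b, 2 further hem ligands named after their values were seen, also had control 5 highest (7.31 and 7.56) and control 2 lowest (5.70 and 5.79). Most ligands of their lists did not. Among 9 other BMP and GDF ligands control 5 was highest for 2 and control 2 lowest for 1. Among 5 Wnt ligands of the hem the counts were also 2 and 1. By Dixon's test for single outliers within a group of 5 (critical value 0.71), none of the 18 gene and group combinations held one.

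Markers of other tissues differed in the same embryos. Genes of mesenchyme and meninges, connective tissue that also expresses Msx and BMP genes, had a mean level between 5.89 and 7.71 in controls and between 6.21 and 6.80 in transgenic embryos over 12 of 12 measured genes. Control 5 was the highest embryo for 11 of the 12, with Col1a1, a fibrillar collagen, at 10.34 against 7.68 to 8.75 in the other controls. The log2 table has no true 0, and the dimmest of the 12 was Ogn at 3.68 and 3.85. Between the groups 4 of the 12 were higher and 8 lower in transgenic embryos (48.1% and 51.9% over all genes), with a median difference of -0.068. None passed in limma, with 1 higher at an unadjusted p below 0.05 (4.1% of all genes). Surface epithelium genes had control 5 highest for 8 of 9 and erythroid genes for 5 of 5, whereas all 12 pan-neuronal genes were lowest there. Between the groups 8 of the 9 surface epithelium genes read lower in transgenic embryos (median -0.091) and all 12 pan-neuronal genes higher (median 0.30). Over all genes 51.9% read lower and 48.1% higher. None passed in limma, with 1 surface epithelium gene lower (3.48% of all genes) and 0 pan-neuronal genes at an unadjusted p below 0.05. The pan-neuronal list mean differed by 0.32 between the groups, and in control 5 it lay 1.11 below the other controls. Its median was 8.72 in transgenic and 8.61 in control embryos. The part of these tissues in the values of control 5 was not tested.

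**Figure D3:**
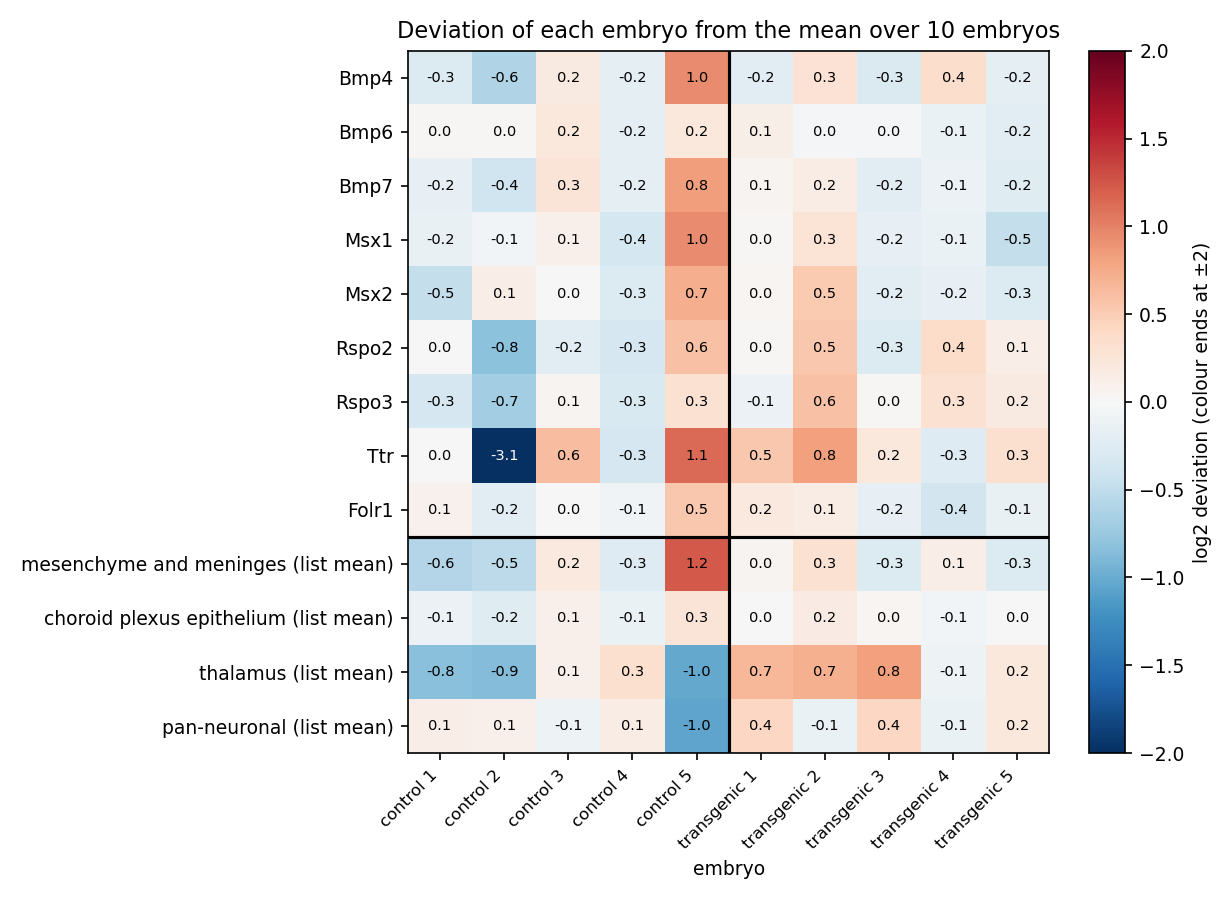
Deviation of each embryo (columns) from the mean over 10 embryos, in log2 units, for the 9 genes and for the mean of 4 marker lists (rows below the line), with red higher, blue lower and the number printed in each cell. Control 5 is high for most of the 9 genes and for mesenchyme and low for neurons, and control 2 is low for Ttr, Rspo2, Rspo3 and Bmp4.

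Over the 10 embryos Bmp4 and Bmp7 varied with mesenchyme genes, Ttr varied with choroid plexus genes, and several of the genes varied with both. Each of the 9 genes was set against the mean of the mesenchyme list and of a 17-gene choroid plexus list, 18 relations in all, with two-sided permutation tests and Benjamini-Hochberg adjustment. Bmp4 had r = 0.937 with the mesenchyme mean (permutation p = 0.00023, adjusted 0.00207) and rho = 0.855 (p = 0.00293, adjusted 0.0176), and r = 0.898 without controls 5 and 1, the 2 embryos farthest from the median. Bmp7 had r = 0.947 (permutation p = 0.00035, adjusted 0.0021) and rho = 0.855 (p = 0.00286, adjusted 0.0176), and r = 0.914 without those embryos.

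Msx2 had r = 0.814 with the mesenchyme mean (permutation p = 0.00367, adjusted 0.0108), rho = 0.673 (p = 0.0385, adjusted 0.077) and r = 0.474 without the same 2 embryos, so this relation rested on them. Ttr had r = 0.838 with the choroid plexus mean (permutation p = 5e-05, adjusted 0.0009) and rho = 0.952 (p = 0.00012, adjusted 0.00216), and r = 0.894 without controls 5 and 2. For either list 7 of 9 genes passed by Pearson's r. With the choroid plexus mean Bmp7 had r = 0.853 (permutation p adjusted 0.00333) and Bmp4 r = 0.803 (adjusted 0.0108). With the mesenchyme mean Ttr had r = 0.591 (permutation p adjusted 0.115). The mesenchyme and choroid plexus means were both highest in control 5, at 7.71 and 5.46. By Spearman's rho only Bmp4 and Bmp7 passed for mesenchyme and only Ttr for choroid plexus. No relation was tested within a group of 5 embryos, and whether the lists or Ttr differ in how they track one another was not tested.

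**Figure D4:**
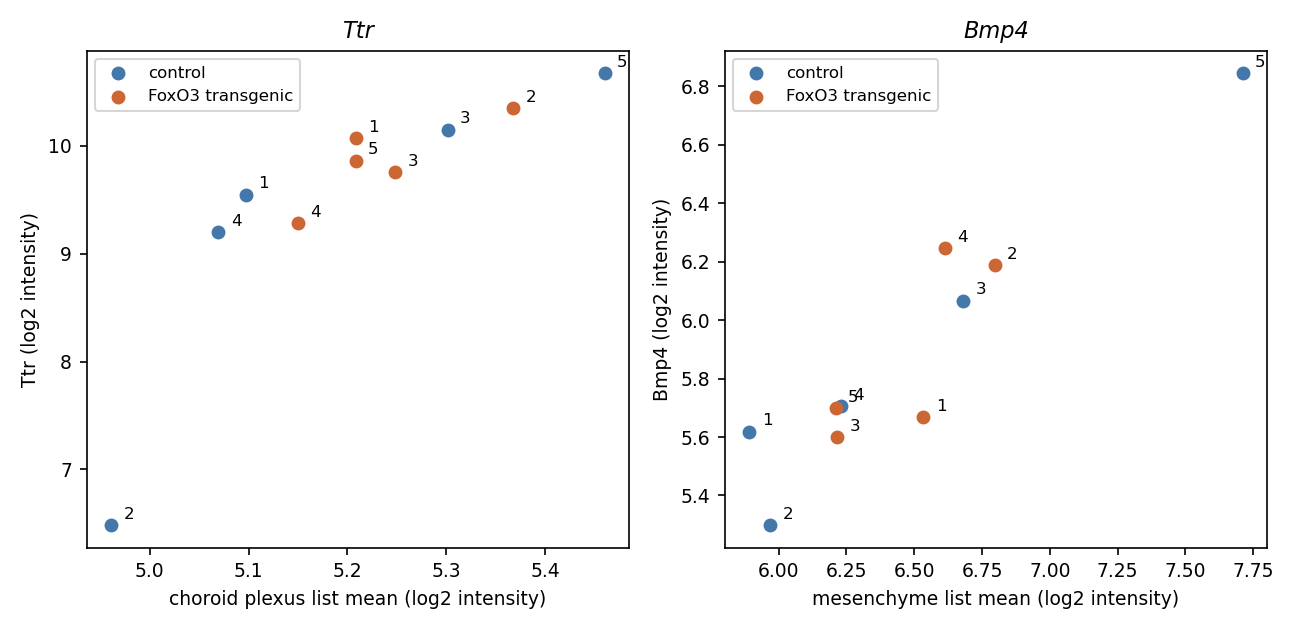
Log2 intensity of Ttr against the mean of the choroid plexus list (left) and of Bmp4 against the mean of the mesenchyme list (right) in 5 control (blue) and 5 transgenic (orange) embryos, numbered. Ttr follows the choroid plexus mean from control 2 up to control 5 (rho = 0.952), and Bmp4 is highest in control 5, where the mesenchyme mean is 7.71.

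The genes most like Ttr over the 10 embryos by Pearson's r were Clic6 (r = 0.954), a chloride channel gene of the choroid plexus, the serotonin receptor gene Htr2c (0.94) and the Wnt feedback gene Axin2 (0.938). Clic6 read 5.08 in control 2 and between 6.36 and 7.55 in the other 9 embryos. Htr2c read 4.11 there and at least 4.83 elsewhere, and Axin2 6.06 and at least 6.70. Closest to Rspo3 were Vim (r = 0.976), Khnyn (0.971) and Akap13 (0.956), and closest to Bmp7 were Grhpr (0.991), Stab1 (0.99) and Emp1 (0.988). Vim ran only from 11.55 to 11.73 over the 10 embryos, where Rspo3 ran from 7.004 to 8.28. These rankings describe 10 arrays and were picked from all genes.

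No gene among the rest of the BMP pathway passed over all genes in limma, of 36 measured. By the unadjusted p, 2 lay higher and 5 lower in transgenic forebrains at p below 0.05 (over all genes, 4.1% lay higher and 3.48% lower). The median difference over the 36 genes was 0.0073. Bmper, which encodes an extracellular BMP-binding modulator, differed most. It read 7.28, 7.12, 6.71, 6.81 and 6.61 in controls 1 to 5 and 6.20, 6.42, 6.30, 6.21 and 6.57 in transgenic embryos. All 5 transgenic embryos lay below every control, and the groups were free of overlap in 1.6% of all genes. The Bmper difference was -0.57 ± 0.13 (SE; limma adjusted p = 0.166).

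Among the ligands Gdf11, a regulator of neurogenesis, differed by 0.25 (limma adjusted p = 0.494). The type I receptor gene Bmpr1b read -0.40 ± 0.12 (adjusted p = 0.391) and the BMP transducer gene Smad5 -0.17 (adjusted p = 0.489). Of the secreted inhibitors, follistatin (Fst) read 0.45 ± 0.15 (adjusted p = 0.478) and the chordin-like gene Chrdl1 -0.17 (adjusted p = 0.627). Id4, an inhibitor of bHLH factors, read -0.33 ± 0.075 (adjusted p = 0.196), with all 5 transgenic embryos below every control (no overlap: 1.6% of all genes). The other Id genes, Id1, Id2 and Id3, had positive differences of 0.095, 0.047 and 0.34, none of which passed, and without control 2 they read 0.053, -0.014 and 0.21. Without control 5 they read 0.16, 0.094 and 0.46, and without both controls 0.13, 0.028 and 0.33.

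The Wnt side of the hem gave 17 further measured genes, of which 13 were higher and 4 lower in transgenic embryos, and none passed (smallest limma adjusted p = 0.51). Over all genes 48.1% were higher. By the unadjusted p, 1 of the 17 lay higher and 1 lower at p below 0.05 (4.1% and 3.48% over all genes). Wnt2b, a hem ligand, read -0.27 ± 0.094 (limma adjusted p = 0.51) with all transgenic embryos below every control. Groups without overlap were seen in 1.6% of all genes. Wnt7b, a ligand of the cortical neuroepithelium, read 0.22 ± 0.096 (adjusted p = 0.629). All 5 measured Wnt response genes had positive differences, from 0.044 for Notum to 0.31 for Axin2, and the smallest adjusted p was 0.771. Without control 2 Axin2 read 0.13, Lef1 0.13 in place of 0.28 and Nkd1 0.045 in place of 0.15. Without control 5 Axin2, Lef1 and Nkd1 read 0.43, 0.39 and 0.24, and without both controls 0.23, 0.23 and 0.14. The receptor and ligase genes through which R-spondins act, Lgr4, Lgr5, Lgr6, Znrf3 and Rnf43, differed by -0.13 to 0.17.

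Of 12 measured dorsal midline and roof plate factors, 9 were higher and 3 lower in transgenic embryos, with a median difference of 0.14. None passed, and 5 lay higher at an unadjusted p below 0.05, against 48.1% higher and 4.1% higher at that p over all genes. Otx2, a homeobox gene needed for the choroid plexus and expressed in the diencephalon and midbrain, read 7.73, 7.13, 8.55, 8.50 and 8.02 in controls 1 to 5. In transgenic embryos it read 8.85, 9.03, 8.94, 8.74 and 8.73, each above every control (no overlap: 1.6% of all genes). The difference was 0.87 ± 0.23 (SE; limma adjusted p = 0.247), and it was 0.65 ± 0.16 without control 2.

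The zinc-finger genes Zic1, Zic2, Zic4 and Zic5, expressed along the dorsal midline, differed by 0.37, 0.43, 0.42 and 0.54. Their limma adjusted p-values lay between 0.353 and 0.515. Control 2 was the lowest embryo for each of these Zic genes. Without control 2 they read 0.26, 0.30, 0.33 and 0.39, and without control 5 they read 0.44, 0.52, 0.52 and 0.64. Lmx1b, a relative of Lmx1a, differed by 0.016. For thalamus genes 9 of 9 differences were positive (48.1% over all genes) with a median of 0.79. At an unadjusted p below 0.05 6 lay higher (4.1% of all genes), and none passed (smallest limma adjusted p = 0.185). Their mean level ran from 6.71 to 7.62 in transgenic and from 5.77 to 7.12 in control embryos. The part of the dissection border in the Otx2 and Zic values was not tested.

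Choroid plexus epithelium genes other than Ttr and Folr1 gave 17 measured genes, 11 higher and 6 lower (48.1% and 51.9% over all genes), with a median difference of 0.024. None passed in limma, with 1 higher at an unadjusted p below 0.05 (4.1% of all genes), Otx2, which is in both lists. The list mean ran from 4.96 to 5.46 in controls and from 5.15 to 5.37 in transgenic embryos. Control 5 was the highest embryo for 9 of the 17 and control 2 the lowest for 5. Clic6 differed by 0.36, the potassium channel gene Kcnj13 by 0.13 and the water channel gene Aqp1 by -0.19 (limma adjusted p = 0.875, 0.936 and 0.869). Single controls moved each of the 3. Without control 2 Clic6 read 0.012 and Kcnj13 0.014, and without control 5 they read 0.63 and 0.32. With both controls left out they read 0.26 and 0.21. Aqp1 read 0.017 without control 5 and -0.26 without control 2. The deposited table gives no detection call, so dim genes of this list may lie at background.

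**Figure D5:**
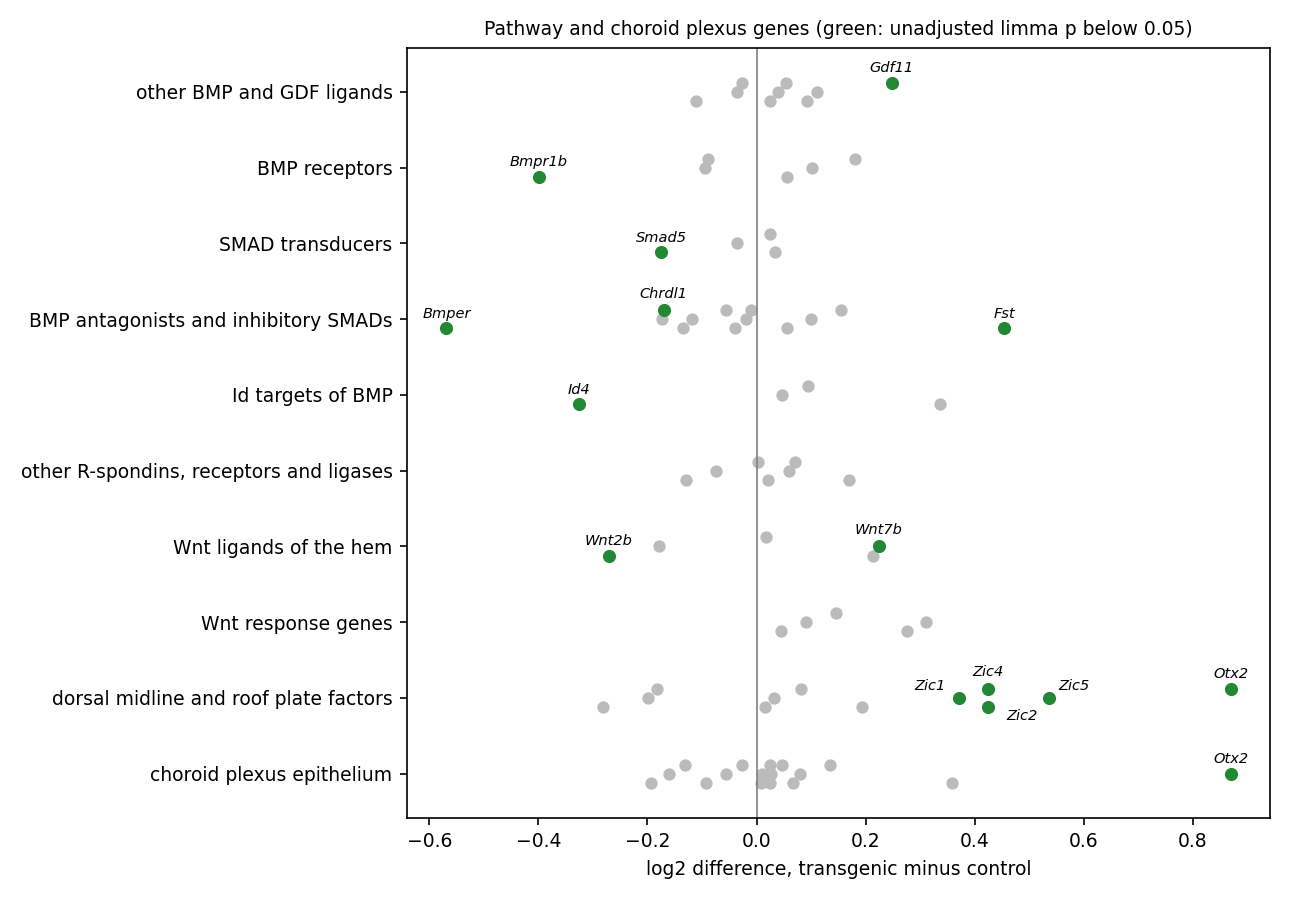
Difference between transgenic and control forebrains on the log2 scale (horizontal axis) for every measured gene of 10 lists (rows), with genes at an unadjusted limma p below 0.05 in green and named, and the others in grey. Otx2 at 0.87 and Bmper at -0.57 lie at the 2 ends, and no gene passed after adjustment.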

How the data were processed

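RNA from 10 divided forebrains was hybridized to 1 Affymetrix array each after sense-strand target labelling with biotin, per the labels' protocols. The authors deposited log2 intensities, for which the submitters' processing notes name Affymetrix Expression Console; its algorithm, version and settings are not given in the sources used here. They were used as deposited.

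Of 35556 probe sets 21789 named 1 gene, 1621 several and 12146 none. Symbols were updated through gene identifiers with RefSeq (GRCm38.p6), and 19938 genes were fitted with limma 3.58.1 in R 4.3.3 (group as the only term, two-sided tests, Benjamini-Hochberg adjustment across the 19938 genes, threshold 0.05). Single genes also had an exact permutation test, in which 252 assignments allow no p below 0.00794. Correlations used 100000 resamples. In data simulated for this comparison (19938 genes, 200 of them changed) 97% of genes changed by 1 and 75.8% of those changed by 0.5 on the log2 scale were recovered, with 28 false calls over 5 simulations; within-group SDs of 8 of the 9 members lie at or above percentile 93.6 of all genes, so these rates need not hold for them.

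The members and lists were chosen with earlier results of these data known. Named pathway genes were those with an unadjusted p below 0.05, at most 4 per list, and the 3 most correlated genes per member described. Others (Zic2, Clic6, Kcnj13, Aqp1, Notum, Axin2, Lef1, Nkd1, Lmx1b, Bmp5, Wnt8b, Col1a1, Ogn, Pax6, Lhx2, Dlx1, Dlx2, Dlx5, the other Id genes and the R-spondin receptors and ligases) were named after their values were seen. The limma p-values set the difference between groups against the spread between embryos. Embryos were not assigned to the 2 dams, so spread between litters could not be separated. Precision is limited by the number of arrays. The labels do not say that the replicate numbers pair the embryos. The following alternatives were tried: single embryos left out, the replicate number as a block, quantile normalization or median centring of arrays, array weights, robust variances with a trend, a filter that removed the dimmest 40% of genes, averaging of probe sets, covariates for thalamus, hypothalamus and midbrain signal and for mesenchyme, a threshold of 0.1, and, chosen after seeing the data, leaving out controls 2 and 5.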

Additional observations from a re-analysis of the deposited data

How the results depend on the processing

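None of the 9 genes passed under any alternative run. The number of all genes past the threshold was 21. It was 2 with the replicate block, 39 with array weights, 5 with the thalamus, hypothalamus and midbrain covariate, 130 with the mesenchyme covariate, 55 at a threshold of 0.1 and 10 without controls 2 and 5, and it ran from 7 to 58 when single embryos were left out. Under the replicate block the smallest adjusted p among the 9 was 0.665. The replicate numbers were not treated as pairs, because the labels do not say that they are. Deviations of same-numbered embryos correlated between -0.25 and 0.24, and 0 of 5 transgenic embryos correlated best with their own number. Whether same-numbered embryos share a batch was not tested.

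Bmp4, Bmp7, Msx1, Msx2 and Ttr changed sign under some alternatives. With array weights Bmp4 read 0.071 and Msx2 0.060. With the thalamus, hypothalamus and midbrain covariate Bmp4 read 0.30, Bmp7 0.036, Msx1 0.11 and Msx2 0.21, while Rspo2 read 0.67 and Rspo3 0.53. That covariate holds thalamus genes, whose mean differed between the groups by 0.92. Without controls 2 and 5 Bmp4 read 0.084, Msx1 0.042 and Msx2 0.24. Leaving out single embryos moved Bmp4 from -0.18 to 0.21, Bmp7 from -0.25 to 0.053, Msx1 from -0.30 to 0.022, Msx2 from -0.17 to 0.14 and Ttr from -0.028 to 1.02. Rspo2 (0.14 to 0.50) and Rspo3 (0.27 to 0.52) stayed positive and Bmp6 and Folr1 negative in those 10 fits. With the mesenchyme covariate Rspo3 read 0.40 ± 0.11 (adjusted p = 0.147). The cause of these shifts was not tested. Array brightness limits the dim genes, for which no background level was given.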
